A study of Mus musculus with 56 samples.

Results

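The MYC, MAX and MXD network is described here through 9 genes chosen by name for their place in it: Myc, Mycn, Max, Mxi1, Mxd1, Mxd3, Mxd4, Mnt and Mlx. All 9 were found among the 47937 genes listed in the deposited count tables, and all 9 passed the filter on low counts in both tables. RNA was sequenced from mouse CD4 T cells of spleen and lymph nodes that had been activated with anti-CD3, anti-CD28 and IL-2 and polarized in culture to TH1, TH2, TH17 or Treg cells until day 4. The series asks what loss of ornithine decarboxylase (ODC, which makes the polyamine putrescine) or of deoxyhypusine hydroxylase (DOHH, which completes the amino acid hypusine on the translation factor eIF5A) does to these cells. Libraries labelled Odc-/- or Dohh-/- came from C57BL/6 mice with CD4cre and Odc flox/flox or Dohh flox/flox alleles, and WT libraries came from mice without Cre. The methods describe these as littermates matched for age and sex. CD4cre is driven by the CD4 promoter and is known to act in developing thymocytes, ahead of any polarization and also in the lineage of CD8 T cells. Odc and Dohh experiments each had WT libraries of their own and separate count tables, here the Odc table (31 libraries) and the Dohh table (24 libraries). Each group held 4 libraries in the Odc table, apart from 3 TH2 libraries labelled Odc-/-, of which replicate 1 was not analysed here, and 3 libraries in the Dohh table. The labels do not say whether replicates were separate mice, so p-values measure the spread between these libraries.

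MYC and MYCN are transcription factors that bind DNA as pairs with MAX and raise transcription of genes for ribosome production, nucleotide and polyamine synthesis and cell division. MXD1, MXI1 (also called MXD2), MXD3, MXD4 and MNT also pair with MAX, bind the same E-box sequence, recruit the SIN3 corepressor and histone deacetylases, and so oppose MYC. MLX pairs with MNT, MXD1 and MXD4 but not with MYC, and with MONDOA (gene Mlxip) and ChREBP (Mlxipl) responds to glucose. In T cells, MYC is induced within hours of activation and drives growth and the change of metabolism that precedes division, while MXD proteins are known from resting and differentiating cells.

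Libraries held 5905374 to 9145214 counts in the Odc table and 6572148 to 12576933 in the Dohh table. Values are CPM, counts scaled to a common library size with TMM factors, and levels of different genes are compared only per kilobase of exon (RPKM). A library in which a gene has 0 counts may hold up to 3 counts at the 95% level, which is 0.31 to 0.498 CPM for Odc and 0.226 to 0.473 CPM for Dohh libraries and covers counting error only. The deleted genes did not check the labels, because counts cover all exons and the floxed exons were not counted apart. Odc1 had 424 to 679.8 CPM in libraries labelled Odc-/- and 357 to 859.9 CPM in their WT libraries, and Dohh had 45.2 to 148 CPM in libraries labelled Dohh-/- and 31.5 to 45.9 CPM in theirs, so that its median was higher under its own deletion label in each subset. Libraries are therefore named by their labels throughout. Among the markers of the subsets, the sums of Tbx21 and Ifng (TH1), of Gata3 and Il4 (TH2) and of Foxp3 and Ikzf2 (Treg), and Il17a (TH17), were higher in every WT library of the subset they define than in any other WT library of the same table. In Treg libraries labelled Dohh-/-, however, Foxp3, which defines Treg cells, had 61.6 to 179 CPM against 554 to 589 CPM in WT. T cell markers (6 genes summed) had 2023 to 3382 CPM in WT and 1393 to 2786 CPM in Odc-/- libraries of the Odc table, and 2479 to 3385 and 1119 to 2344 CPM in the Dohh table. Markers of basophils and mast cells (Mcpt8, Ms4a2, Cpa3 and Fcer1a summed) had 1.14 to 12.8 CPM in WT and 10.1 to 264 CPM in libraries labelled Odc-/-, and 0.729 to 2.99 CPM in WT and 32.2 to 867 CPM in libraries labelled Dohh-/-. Myeloid markers (Lyz2, Itgam, Csf1r, Cd14 and Cd68 summed) reached 4501 and 1452 CPM in replicates 2 and 3 of the TH17 libraries labelled Dohh-/- and 3053 and 1860 CPM in those of the Treg libraries, against 19 to 35.2 CPM in WT. B cell markers had 73.1 to 268 and 233 to 411 CPM in TH1 and TH2 libraries labelled Odc-/-, and 5.69 to 30.3 and 22.7 to 82.8 CPM in their WT libraries. In TH17 and Treg libraries labelled Odc-/- they had 9.48 to 16.8 CPM (WT 3.16 to 5.99) and 18.8 to 149 CPM (WT 3.2 to 5.07), and myeloid markers had 38 to 273 CPM (WT 20.3 to 44.2) and 76.2 to 333 CPM (WT 19.7 to 42.4). CD8 T or NK cell markers had 151 to 232 and 175 to 342 CPM in Treg libraries labelled Odc-/- and Dohh-/-, and 16.3 to 41.8 and 20.8 to 26.9 CPM in WT, and in TH17 libraries labelled Dohh-/- they had 88.2 to 152 CPM (WT 22.7 to 26.2). Erythroid markers were higher in every library labelled Dohh-/- than in every WT library of its subset, with 2.45 to 6.00 CPM in TH1 (WT 0 to 0.336) and 8.52 to 53.9 CPM in TH17 (WT 0.115 to 0.585), and had 0 to 2.66 CPM in libraries labelled Odc-/- (WT 0 to 3.07). By the methods, naive CD4 T cells were obtained by negative selection, a step meant to remove other cell types before culture. The part of these other cells in the values of the network was not tested. In bulk RNA, fewer cells of a type and less RNA per cell cannot be told apart.

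Across the network, Mxd4 fell in the -/- libraries of all 4 subsets in both experiments, Mxi1 fell in 7 of the 8 comparisons and Mxd1 in 6, whereas Mycn rose in 6 and fell in 1. Max did not pass the test in any of the 8, and Myc passed it only in TH17 and Treg cells labelled Odc-/-, where it was lower. Libraries of 1 replicate number and genotype deviated together in most pairs of subsets, so the 4 subsets of a table are not independent repeats. Counts over comparisons, here and below, rest on the Odc and the Dohh experiment. A gene passed the test where the adjusted p of edgeR's quasi-likelihood test was below 0.05, adjusted by Benjamini-Hochberg over all genes of the table, and was called where the change was also over 2-fold. In the Odc table, 4 of the 9 members passed in TH1 cells, 5 in TH2, 4 in TH17 and 6 in Treg, while 56.8%, 59.2%, 47.8% and 59.8% of all 13839 genes tested did. In the Dohh table, 5, 5, 7 and 7 members passed in the same order, beside 50.0%, 45.3%, 52.0% and 53.4% of 13897 genes. Called members numbered 2, 4, 2 and 3 in the Odc table, beside 21.4%, 25.1%, 15.6% and 24.0% of all genes, and 3, 2, 4 and 4 in the Dohh table, beside 29.1%, 25.9%, 31.4% and 32.7%. About every second gene thus passed, so that passing alone does not set the members apart. By direction, 29.1%, 29.9%, 25.6% and 32.9% of all genes rose and 27.7%, 29.3%, 22.2% and 26.9% fell in the Odc table, and 25.9%, 23.8%, 27.0% and 28.4% rose and 24.1%, 21.5%, 24.9% and 25.0% fell in the Dohh table. The median log2 fold change over all genes was at most 0.07 in size in any of them. With replicate 3 labelled Odc-/- left out, the richest in basophil markers, 2, 4, 2 and 2 members were called in the Odc table. In the Dohh table, the basophil-rich replicates 2 and 3 of all -/- groups were left out. In another fit, the myeloid-rich replicates 2 and 3 of TH17 and Treg cells labelled Dohh-/- were left out. These choices were made after seeing the data. In the Dohh table each leaves 1 library in the -/- groups compared, which is then taken to vary like the other groups. Without the basophil-rich libraries these are WT groups only, so effect sizes alone are given for both fits. The libraries kept were themselves above WT. For myeloid markers those labelled Dohh-/- had 97.4 CPM in TH17 (WT at most 35.2) and 79.3 CPM in Treg cells (WT at most 23.9). For basophil markers all libraries labelled Dohh-/- had at least 32.2 CPM (WT at most 2.99), and libraries kept in the Odc table were above WT of their subset too.

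**Figure D1:**
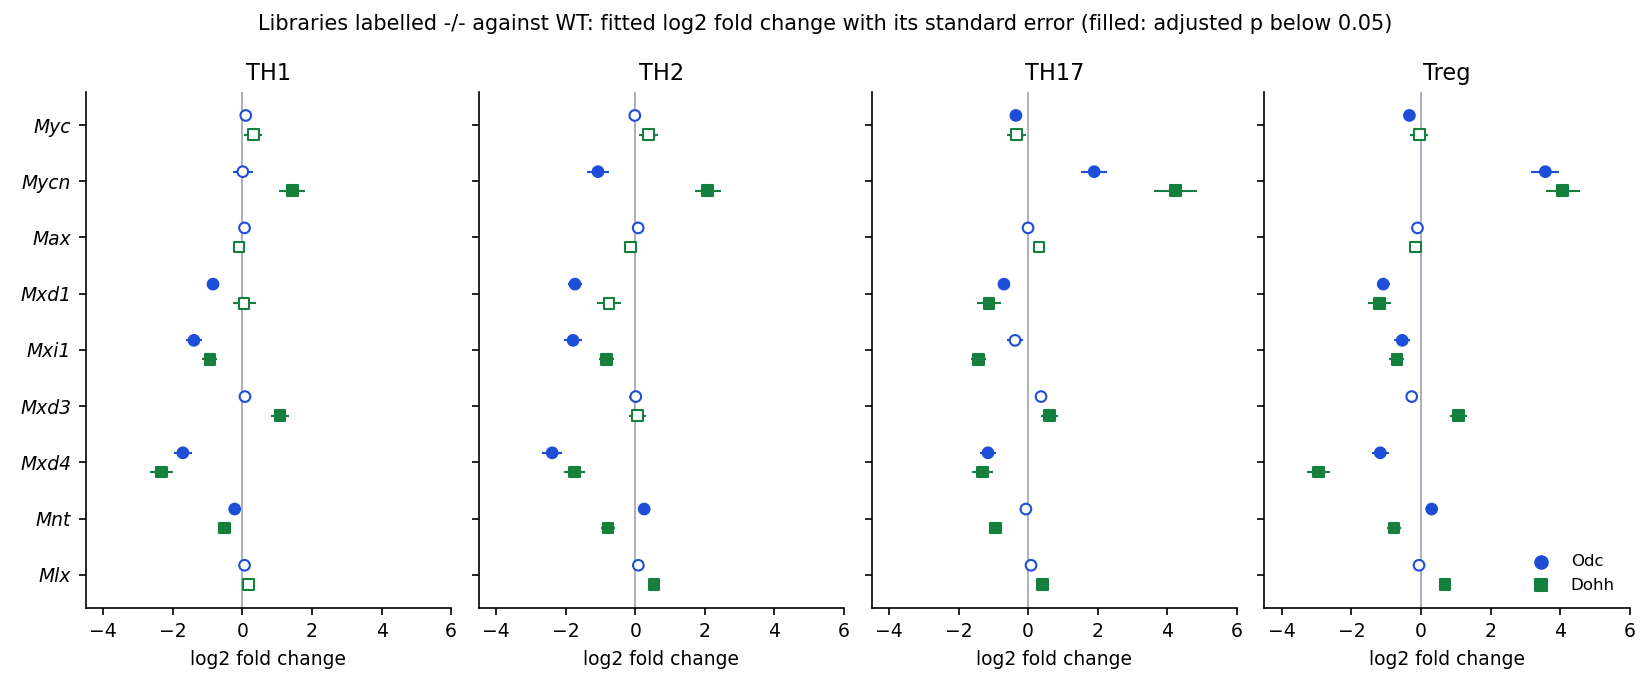
Fitted log2 fold change (horizontal axis) of each member (rows) in libraries labelled -/- against WT, one panel per subset, blue circles for Odc and green squares for Dohh. Bars show the standard error and filled symbols an adjusted p below 0.05. Mxd4 lies left of 0 in all 8 comparisons, and Mycn reaches 4.23 in TH17 cells labelled Dohh-/-.

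Myc was by far the most abundant member in WT cells per length of transcript and Mycn the least or nearly so. In WT TH1 cells of the Odc table, the mean levels in RPKM (± SD, n = 4) ran from Myc (144 ± 23) through Mxi1 (38.5 ± 4.33), Mxd1 (34.2 ± 7.81), Max (31.9 ± 2.71) and Mlx (25.2 ± 0.415) to Mnt (16.4 ± 0.646), Mxd3 (10.0 ± 2.97), Mxd4 (9.99 ± 1.79) and Mycn (7.43 ± 0.71). Neighbours from Mxi1 to Max, and from Mxd3 to Mycn, lay within 1 SD of each other or nearly so, and their order is not resolved. WT Treg cells of the same table had the same first gene and the lowest Mycn, at 163 ± 36.4 and 0.271 ± 0.164 RPKM. WT levels of the Dohh table ran from Myc at 98.8 ± 12.6 to Mycn at 4.5 ± 1.16 RPKM in TH1 cells and from 65.9 ± 7.83 to 0.0524 ± 0.0494 RPKM in TH17 cells (SD, n = 3).

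Mycn encodes N-MYC, the paralogue of MYC best known from the embryonic nervous system and neuroblastoma, and it had the widest differences between WT subsets of the 9 members. Its promoter is shown because Mycn had the largest increases of the network. The E-box CACGTG, which reads the same on both strands and is written in capitals wherever it occurs, was absent from this stretch. The stretch runs from 250 bases before to 50 bases after the start used for the promoter, which differs from the gene boundary given below. The sequence is from RefSeq (GRCm38.p6, chr12:12941787-12942086, - strand).
Mycn promoter: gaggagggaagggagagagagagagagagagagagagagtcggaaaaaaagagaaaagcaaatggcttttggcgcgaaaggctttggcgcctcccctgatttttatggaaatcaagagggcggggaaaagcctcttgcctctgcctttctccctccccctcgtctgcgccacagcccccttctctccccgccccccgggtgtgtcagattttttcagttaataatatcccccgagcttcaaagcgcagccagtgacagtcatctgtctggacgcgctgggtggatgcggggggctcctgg

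Mycn (ENSMUSG00000037169.14, chr12:12936093-12941914 on the - strand in GRCm38) was expressed in WT TH1 and TH2 cells and nearly silent in WT TH17 and Treg cells. WT libraries of the Odc table had 25.9, 21.2, 26.4 and 24.4 CPM in TH1 cells, 20.4, 27.1, 23.8 and 32.4 in TH2, 2.2, 1.17, 2.49 and 1.74 in TH17 and 0.953, 0.413, 0.576 and 1.63 in Treg cells (replicates 1 to 4). Libraries of the first pair of subsets were all above those of the second, and TH1 and TH2 overlapped. Between WT subsets, the log2 difference of TH17 from TH1 was -3.67 (adjusted p = 3.32e-09) and that of Treg from TH2 was -4.85 (adjusted p = 4.2e-11), while TH2 and TH1 differed by 0.08 (adjusted p = 0.883) in edgeR's test. WT libraries of the Dohh table had 19.2, 12.3 and 13 CPM in TH1, 13.9, 9.62 and 6.95 in TH2, 0.323, 0.195 and 0 in TH17 and 0.978, 0.122 and 0.426 in Treg cells (replicates 1 to 3), the same division of subsets.

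In libraries labelled Odc-/-, Mycn had 13.7, 4.08, 6.66 and 4.16 CPM in TH17 cells and 11.2, 9.88, 13.3 and 8.34 CPM in Treg cells, every one above every WT library of its subset, as was so for 21.5% and 25.2% of all genes. It rose 3.73-fold in TH17 cells, a log2 fold change of 1.90 (SE 0.369, adjusted p = 0.000196), and 11.9-fold in Treg cells, 3.57 (SE 0.4, adjusted p = 4.27e-08). B cell and basophil markers were also higher in every TH17 and Treg library with that label than in WT, and myeloid and CD8 T or NK cell markers in every Treg library; their part in the rise of Mycn was not tested. With the basophil-rich replicate 3 left out, Mycn was 1.93 (adjusted p = 0.000454) in TH17 and 3.45 (adjusted p = 4.43e-07) in Treg cells. In TH1 cells, 26.6, 18.1, 30.3 and 23.8 CPM overlapped with WT, at 0.01 (SE 0.284, adjusted p = 0.979). TH2 went the other way: 7.02, 18.5 and 11.4 CPM in replicates 2, 3 and 4, all below WT, a fall with a log2 fold change of -1.07 (SE 0.32, adjusted p = 0.0055). That fall did not pass without the lowest library, Odc-/- replicate 2, at -0.79 (adjusted p = 0.0549), and was under 2-fold without WT replicate 4, at -0.95 (adjusted p = 0.0181). Low WT counts limit the precision of the increases. Summed counts gave a ratio of -/- to WT of 3.75 (95% exact interval 2.83 to 5.02) in TH17 and 12.1 (95% exact interval 8.44 to 18) in Treg cells, with intervals that cover counting error only and not the spread between libraries.

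In libraries labelled Dohh-/-, Mycn rose in all 4 subsets. TH1 libraries had 56.9, 23.7 and 39.4 CPM, TH2 48.4, 37.7 and 43.7, TH17 2.64, 3.86 and 4.99 and Treg 5.86, 11.9 and 10.8 CPM, and no library overlapped with the WT libraries of its subset. Of all genes, 23.7%, 31.9%, 29.9% and 34.3% were higher in every -/- library than in every WT library of these subsets. The log2 fold changes in edgeR's test were 1.43 (SE 0.369, adjusted p = 0.00304) in TH1, 2.08 (SE 0.378, adjusted p = 0.000171) in TH2, 4.23 (SE 0.624, adjusted p = 1.45e-05) in TH17 and 4.08 (SE 0.496, adjusted p = 1.03e-06) in Treg cells. Of all genes, 14.8%, 14.3%, 17.3% and 17.5% were called higher in the same order, and in the Odc table the shares were 10.2%, 11.5%, 8.35% and 13.9%. In TH17 cells the WT libraries held 4, 2 and 0 counts of Mycn against 26, 48 and 33 counts, a ratio of 19.3 (95% exact interval 8.58 to 53.7), and in Treg cells 13, 1 and 5 against 53, 118 and 105, a ratio of 16.9 (95% exact interval 10.6 to 28.4). These intervals, too, cover counting error only. Without WT replicate 1, the fitted value was 5.00 (adjusted p = 8.29e-05) in TH17 and 4.89 (adjusted p = 3.04e-06) in Treg cells. With the myeloid-rich replicates 2 and 3 of TH17 and Treg cells left out, the values were 3.72 and 3.33. In spite of the rise, all TH17 and Treg libraries labelled Dohh-/- stayed below all TH1 and TH2 libraries with that label. This was not so in the Odc table, where TH17 (4.08 to 13.7 CPM) and Treg libraries (8.34 to 13.3 CPM) labelled Odc-/- overlapped with TH2 libraries (7.02 to 18.5 CPM).

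Myc (ENSMUSG00000022346.14, chr15:61985391-61990374 on the + strand in GRCm38), whose protein is the main activator of the network in T cells, passed in 2 of the 8 comparisons. Its fitted log2 fold changes ran from -0.35 to 0.38. In the Odc table, TH17 libraries labelled Odc-/- had 394, 385, 326 and 409 CPM and WT libraries 448, 485, 445 and 555 CPM, without overlap, and the log2 fold change was -0.35 (SE 0.123, adjusted p = 0.02). Treg libraries had 393, 318, 333 and 361 CPM against 393, 405, 382 and 590.1 CPM, which overlapped, with a log2 fold change of -0.33 (SE 0.123, adjusted p = 0.0209). The TH17 fall did not pass with either of 2 libraries left out, at -0.28 (adjusted p = 0.0733) without WT replicate 4 and -0.29 (adjusted p = 0.0797) without -/- replicate 3. In Treg cells the value was -0.16 (adjusted p = 0.192) without WT replicate 4, -0.29 (adjusted p = 0.0667) without -/- replicate 2 and -0.31 (adjusted p = 0.0543) without -/- replicate 3. Myc did not pass in TH1 or TH2 cells labelled Odc-/-, at 0.10 (adjusted p = 0.519) and -0.01 (adjusted p = 0.942). In the Dohh table it did not pass in any subset, at 0.32 (adjusted p = 0.324) in TH1, 0.38 (adjusted p = 0.244) in TH2, -0.34 (adjusted p = 0.29) in TH17 and -0.05 (adjusted p = 0.885) in Treg cells. With an SE of 0.26 in each subset, these values do not settle whether Myc changed under that label. The 3 TH1 libraries labelled Dohh-/- spread widely, at 359, 193 and 451 CPM against 254, 308 and 244 CPM in WT, and without the lowest, replicate 2, the value was 0.59 (adjusted p = 0.0492). TH17 libraries labelled Dohh-/- had 201, 138 and 86.1 CPM, and without replicate 1 the value was -0.68 (adjusted p = 0.0413).

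Max (ENSMUSG00000059436.12, chr12:76937269-76962201 on the - strand in GRCm38), the partner with which MYC, MYCN and the MXD proteins bind DNA, passed in 0 of the 8 comparisons by edgeR's quasi-likelihood test, where no unadjusted p was below 0.05 (the lowest was 0.0916), with log2 fold changes from -0.17 to 0.31. It had 134 to 151 CPM in Treg libraries labelled Odc-/- and 143 to 162 CPM in WT, the group with the highest mean in that table, and 90.4 to 104 and 90.6 to 101 CPM in TH17 cells. With DESeq2, Max passed in 1, Treg cells labelled Odc-/-, at -0.16 (adjusted p = 0.027). WT subsets did differ in Max, which was higher in Treg than in TH2 cells by 0.68 (adjusted p = 1.5e-08) in the Odc table and 0.85 (adjusted p = 0.00079) in the Dohh table on the log2 scale.

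**Figure D2:**
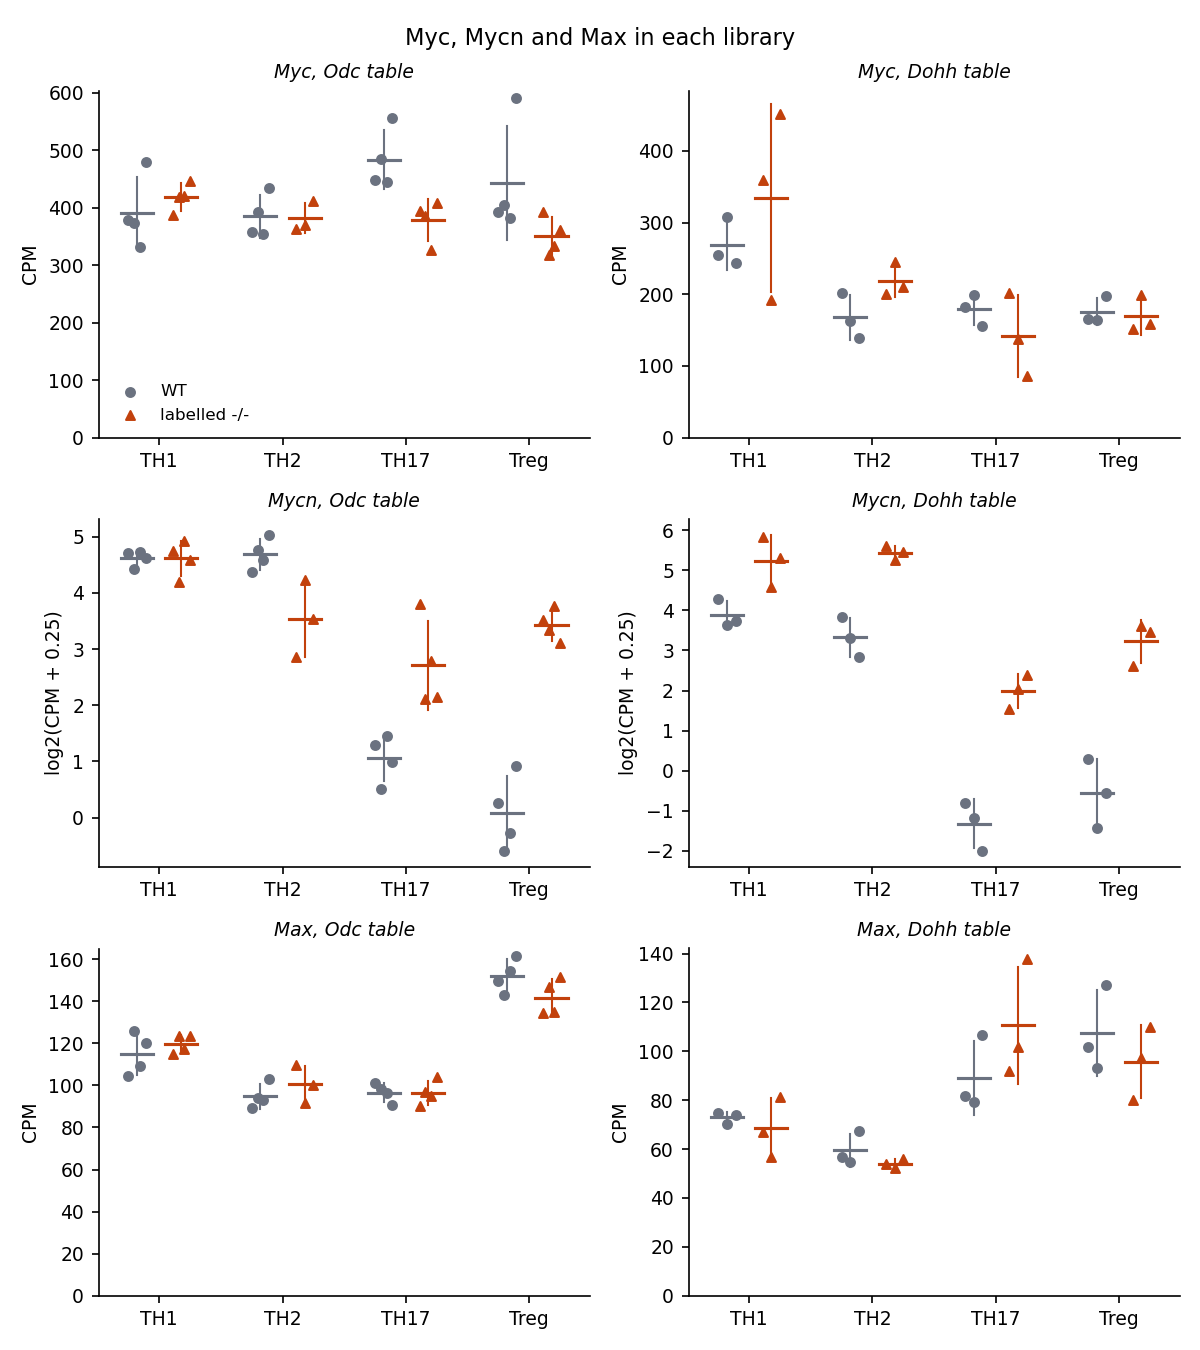
Myc, Mycn and Max in every library (points) by subset, WT in grey and libraries labelled -/- in orange, Odc table on the left and Dohh table on the right. Horizontal lines are means and vertical lines 1 SD. The vertical axis is CPM for Myc and Max and log2(CPM + 0.25) for Mycn, whose TH17 and Treg points of WT and -/- libraries do not overlap.

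Of the antagonists, Mxd4 fell in the most comparisons. MXD4 (MAD4) is a repressor of the MXD family that is known from differentiating cells, and its promoter is shown because Mxd4 was the member called lower in every comparison. It holds an E-box, starting at base 32. The RefSeq sequence is from GRCm38.p6, chr5:34187661-34187960, - strand.
Mxd4 promoter: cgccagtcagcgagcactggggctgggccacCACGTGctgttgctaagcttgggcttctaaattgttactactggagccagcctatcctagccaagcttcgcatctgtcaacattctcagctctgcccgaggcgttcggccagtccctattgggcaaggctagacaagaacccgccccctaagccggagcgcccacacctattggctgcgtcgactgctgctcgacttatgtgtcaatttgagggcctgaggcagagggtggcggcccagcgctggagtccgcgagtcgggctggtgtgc

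Mxd4 (ENSMUSG00000037235.13, chr5:34173883-34187720 on the - strand in GRCm38) fell in all 8 comparisons, and in each of them every -/- library was below every WT library. In the Odc table, -/- libraries had 43.9, 20.4, 20.7 and 18.9 CPM in TH1 cells (WT 90.6, 88.9, 96.9 and 62.6) and 18.4, 30.1 and 18.3 CPM in TH2 cells (WT 129.5, 114, 115 and 109). They had 43.9, 39, 32.3 and 42 CPM in TH17 cells (WT 98.9, 91.1, 99 and 61.3) and 37.7, 55.9, 38.2 and 56.2 CPM in Treg cells (WT 123, 114, 126 and 59.7). WT replicate 4 was the lowest WT library in each subset, and -/- replicate 1 stood above the other TH1 libraries, as it did in B cell markers, with 268 CPM. In each subset WT replicate 4 also had the lowest T cell markers of the WT libraries, with 2023 CPM in Treg cells against 2851 to 3272 CPM, and the highest TH1 markers, with 2118 CPM in TH1 cells against 638 to 842 CPM. Their part in the level of Mxd4 was not tested. Among all genes, 19.6% to 30.5% were lower in every -/- library than in every WT library in the subsets of the Odc table, and 27.0% to 32.3% in those of the Dohh table. By edgeR's test, the log2 fold changes were -1.71 (SE 0.25, adjusted p = 6.48e-06) in TH1, -2.39 (SE 0.283, adjusted p = 3.26e-07) in TH2, -1.15 (SE 0.242, adjusted p = 0.000448) in TH17 and -1.17 (SE 0.24, adjusted p = 0.000176) in Treg cells, which is 5.23-fold lower in TH2 and 2.23-fold lower in TH17 cells. Of all genes tested in the Odc table, 11.3%, 13.6%, 7.21% and 10.1% were called lower in TH1, TH2, TH17 and Treg cells.

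Libraries labelled Dohh-/- had 6.54, 7.1 and 18.2 CPM of Mxd4 in TH1 cells (WT 54.3, 58.2 and 49.1) and 49.7, 31.9 and 18.9 CPM in TH2 cells (WT 119.6, 111 and 108). In TH17 cells they had 64.3, 72.1 and 67.4 CPM (WT 188, 160.2 and 156) and in Treg cells 29.4, 20.0 and 15.4 CPM (WT 170.1, 165 and 165). WT cells of the Dohh table thus had more Mxd4 in TH17 and Treg than in TH1 cells, a log2 difference of 1.64 (adjusted p = 0.000393) for TH17 and 1.63 (adjusted p = 0.000311) for Treg. The fall was 7.73-fold in Treg cells, with a log2 fold change of -2.95 (SE 0.322, adjusted p = 2.6e-07), against -2.33 (SE 0.325, adjusted p = 8.69e-06) in TH1, -1.75 (SE 0.307, adjusted p = 0.000118) in TH2 and -1.31 (SE 0.301, adjusted p = 0.00118) in TH17 cells. The share of all genes called lower in the Dohh table was 14.2%, 11.6%, 14.1% and 15.2%. Without -/- replicate 3, the TH1 value was -2.98 (adjusted p = 1.16e-07). With the basophil-rich libraries left out, TH1 was -3.02 and Treg -2.53, so that the order of these subsets turned. The effect differed between subsets in both tables, with an adjusted p of 0.023 (Odc) and 0.0355 (Dohh) for the interaction of genotype and subset, which for Dohh was 0.0523 with a replicate block within genotype. Neither passed without replicate 2, at 0.288 and 0.418. Without the myeloid-rich Dohh-/- libraries, Mxd4 was at -1.38 in TH17 and -2.54 in Treg cells, each from 1 -/- library. The gene shares 6.06% of its exon length with Gm42846 on the opposite strand, and the strand setting of the counting is not given in the sources used here.

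Mxi1 (ENSMUSG00000025025.13, chr19:53310518-53375810 on the + strand in GRCm38) encodes MXI1, an MXD protein that recruits SIN3. TH1 libraries labelled Odc-/- had 167, 68.6, 75.9 and 89.4 CPM against 269, 253, 299.5 and 229 CPM in WT, and TH2 libraries 39.5, 82.8 and 78.7 against 252, 236, 264 and 173 CPM. Neither pair of groups overlapped, and Mxi1 fell by log2 fold changes of -1.39 (SE 0.228, adjusted p = 2.16e-05) and -1.79 (SE 0.256, adjusted p = 3.41e-06). TH17 libraries had 125, 138, 74.4 and 129 CPM against 137, 166, 135 and 168 CPM, which overlapped, at -0.38 (SE 0.224, adjusted p = 0.168). In Treg cells the change of -0.54 (SE 0.224, adjusted p = 0.0401) was close to the threshold, with 106, 97.4, 95.8 and 127 CPM against 150.2, 149, 156 and 164 CPM. It passed without -/- replicate 4, at -0.63 (adjusted p = 0.0302), but did not pass without any other of the 8 libraries, at adjusted p-values from 0.0552 to 0.0947. The effect differed between subsets of the Odc table (adjusted p = 0.00307, and 0.0855 without replicate 2). WT levels of Mxi1 were also higher there in TH1 and TH2 than in TH17 and Treg cells, with TH17 differing from TH1 by -0.80 (adjusted p = 0.00555).

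In libraries labelled Dohh-/-, Mxi1 fell in every subset. Values were 59.2, 40.7 and 54.4 CPM in TH1 (WT 115, 92.8 and 87.8), 60.2, 51.8 and 38.6 in TH2 (WT 91.4, 81.6 and 93), 57.7, 49.8 and 31.4 in TH17 (WT 123, 123 and 130.0) and 58.2, 73.5 and 42.5 in Treg cells (WT 98.1, 87.8 and 95.8), with no overlap in any subset. The log2 fold changes were -0.93 (SE 0.214, adjusted p = 0.00113), -0.82 (SE 0.213, adjusted p = 0.00373), -1.43 (SE 0.215, adjusted p = 1.85e-05) and -0.69 (SE 0.212, adjusted p = 0.00906) in the same order, so that TH17 alone was over 2-fold. TH1 was also over 2-fold without -/- replicate 1, at -1.02 (adjusted p = 0.00244), or WT replicate 3, at -1.01 (adjusted p = 0.0019), and TH2 without -/- replicate 1, at -1.01 (adjusted p = 0.0023).

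Mxd1 encodes MAD1, the founding MXD repressor, known to rise as blood cells mature. Its promoter is rich in G and C (76.7% of bases) and holds no E-box, and it is shown beside that of Mxd4 because both genes fell in several subsets of both experiments. The RefSeq sequence is from GRCm38.p6, chr6:86669110-86669409, - strand.
Mxd1 promoter: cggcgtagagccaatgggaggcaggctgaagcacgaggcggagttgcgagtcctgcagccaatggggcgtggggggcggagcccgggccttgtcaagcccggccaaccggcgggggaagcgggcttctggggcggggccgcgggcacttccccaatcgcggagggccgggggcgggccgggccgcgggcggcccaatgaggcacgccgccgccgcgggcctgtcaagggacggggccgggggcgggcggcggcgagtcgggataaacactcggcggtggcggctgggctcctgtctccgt

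Mxd1 (ENSMUSG00000001156.9, chr6:86647042-86669161 on the - strand in GRCm38) was lower in every -/- library than in every WT library in all 4 subsets of the Odc table. TH1 libraries had 159, 102, 148 and 131 CPM (WT 296, 236, 269 and 168), TH2 23.6, 31.1 and 23.6 (WT 94.4, 90.3, 95.4 and 67.2), TH17 122, 101, 110.5 and 109 (WT 200.2, 187, 204 and 124) and Treg 58.8, 75.7, 49.4 and 85.2 (WT 154, 145, 158 and 114). It fell with log2 fold changes of -0.84 (SE 0.181, adjusted p = 0.000326), -1.73 (SE 0.213, adjusted p = 4.56e-07), -0.69 (SE 0.181, adjusted p = 0.00288) and -1.09 (SE 0.184, adjusted p = 1.62e-05). The Treg value was under 2-fold without -/- replicate 3, at -0.96 (adjusted p = 0.000164). The effect differed between subsets (adjusted p = 0.0193, and 0.163 without replicate 2). WT TH2 cells held the least Mxd1 in both tables, with a log2 difference from TH1 of -1.48 (adjusted p = 5.13e-07) in the Odc table and -1.11 (adjusted p = 0.036) in the Dohh table.

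In libraries labelled Dohh-/-, Mxd1 fell in TH17 cells, from 234, 219 and 221 to 131, 112 and 66.5 CPM, and in Treg cells, from 132, 130.1 and 148 to 59.3, 70.0 and 49.4 CPM. The log2 fold changes were -1.12 (SE 0.334, adjusted p = 0.00799) and -1.20 (SE 0.336, adjusted p = 0.00515). The TH17 value was -0.87 (adjusted p = 0.054) without -/- replicate 3. With the myeloid-rich libraries left out, the single library remaining gave -0.78 in TH17 and -1.24 in Treg cells. The same single library gave -0.77 in TH17 and -1.23 in Treg cells once the basophil-rich replicates 2 and 3 of the other subsets were left out too. The values hardly moved between these fits, which differ in the other libraries that set the spread. A single library does not show the spread of its group, so these fits cannot say whether the fall passes without the myeloid-rich libraries. TH2 libraries labelled Dohh-/- had 45.3, 39.3 and 43.4 CPM against 78.6, 59.3 and 77.6 CPM, without overlap, at -0.75 (SE 0.336, adjusted p = 0.0737), which passed in DESeq2, -0.76 (adjusted p = 0.0474), and in a fit of the 2 groups alone, -0.76 (adjusted p = 0.000451). In TH1 cells 1 library set the value. There, 123, 62.8 and 295 CPM in replicates 1 to 3 against 166, 149 and 150.2 CPM in WT gave 0.05 (SE 0.33, adjusted p = 0.91), and without -/- replicate 3 the value was -0.73 (adjusted p = 0.0152).

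Mxd3 (ENSMUSG00000021485.13, chr13:55325168-55329823 on the - strand in GRCm38) encodes MAD3, which unlike the other MXD proteins is known from cells in S phase. It rose in 3 of the 4 subsets labelled Dohh-/-. TH1 libraries labelled Dohh-/- had 30.9, 40.6 and 19.4 CPM (WT 13.1, 12.9 and 16.9), TH17 55.7, 33.4 and 39 (WT 28.8, 28.9 and 25.6) and Treg 70.2, 48.3 and 35.8 (WT 22.7, 25.3 and 24.7), without overlap in any of the 3. Log2 fold changes were 1.08 (SE 0.249, adjusted p = 0.00122) in TH1, 0.62 (SE 0.242, adjusted p = 0.0369) in TH17 and 1.09 (SE 0.243, adjusted p = 0.000845) in Treg cells. TH2 did not pass, at 0.06 (SE 0.246, adjusted p = 0.863). The TH1 rise was under 2-fold without -/- replicate 2, at 0.82 (adjusted p = 0.0121), and the Treg rise without -/- replicate 1, at 0.80 (adjusted p = 0.0105), or WT replicate 1, at 0.99 (adjusted p = 0.00968). In TH17 cells the rise did not pass without -/- replicate 1, at 0.37 (adjusted p = 0.229), or without WT replicate 1, 2 or 3, at 0.65 (adjusted p = 0.0766), 0.65 (adjusted p = 0.0738) and 0.56 (adjusted p = 0.108). With the myeloid-rich libraries left out, Mxd3 was called in TH17 cells, at 1.01 (adjusted p = 0.0117), and in Treg cells (adjusted p = 0.000467), as it was in both with the basophil-rich libraries left out, at 1.01 (adjusted p = 4.12e-05) and 1.51 (adjusted p = 1.52e-07). In the Odc table Mxd3 passed in no subset, with log2 fold changes from -0.27 to 0.37. In TH17 cells there, 41.5, 34.1, 41.9 and 31.7 CPM did not overlap with 27, 28.6, 28.5 and 31.1 CPM in WT (adjusted p = 0.0716), and in Treg cells the value was -0.44 (adjusted p = 0.0297) without -/- replicate 3.

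Mnt encodes a large MAX partner present in nearly all cells, where it is held to be the standing antagonist of MYC. Its promoter is shown because Mnt went opposite ways in TH2 and Treg cells of the 2 experiments. An E-box starts at base 128. The RefSeq sequence is from GRCm38.p6, chr11:74830674-74830973, + strand.
Mnt promoter: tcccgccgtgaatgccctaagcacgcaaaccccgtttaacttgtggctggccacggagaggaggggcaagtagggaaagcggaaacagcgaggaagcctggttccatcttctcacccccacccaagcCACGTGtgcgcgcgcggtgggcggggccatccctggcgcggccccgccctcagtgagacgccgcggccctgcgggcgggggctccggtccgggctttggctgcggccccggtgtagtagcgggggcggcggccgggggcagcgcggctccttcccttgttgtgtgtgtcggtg

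Mnt (ENSMUSG00000000282.12, chr11:74830920-74845725 on the + strand in GRCm38) fell in 4 of 4 subsets labelled Dohh-/-, but rose in TH2 and Treg cells labelled Odc-/-. Libraries labelled Dohh-/- had 38.4, 41.2 and 35.7 CPM in TH2 (WT 76.2, 59.3 and 62.9), 40.3, 37.1 and 26 in TH17 (WT 73.4, 63.6 and 61.8) and 36.1, 34.7 and 29 in Treg cells (WT 61.8, 48.4 and 60.2), without overlap, and 47.5, 30.1 and 53.3 in TH1 cells (WT 67.6, 66.6 and 52.9), where replicate 3 overlapped. The log2 fold changes were -0.51 (SE 0.191, adjusted p = 0.0304) in TH1, -0.78 (SE 0.191, adjusted p = 0.00237) in TH2, -0.94 (SE 0.192, adjusted p = 0.000419) in TH17 and -0.77 (SE 0.192, adjusted p = 0.00202) in Treg cells. The TH1 fall did not pass without -/- replicate 2, at -0.31 (adjusted p = 0.168), WT replicate 1, at -0.44 (adjusted p = 0.114), or WT replicate 2, at -0.46 (adjusted p = 0.101). With the myeloid-rich libraries left out, the single library remaining gave -0.71 in TH17 and -0.69 in Treg cells. With the basophil-rich libraries of all subsets left out, the same single library gave -0.71 in TH17 and -0.68 in Treg cells. Whether the falls pass without these libraries cannot be told from 1 library.

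Libraries labelled Odc-/- had 71.4, 67.4 and 74.4 CPM of Mnt in TH2 cells against 61, 61.1, 59.2 and 56.7 CPM in WT, all higher, and 75.2, 72.3, 58.5 and 75.9 CPM in Treg cells against 54.9, 50.1, 55.5 and 67.4 CPM, where WT replicate 4 overlapped. The log2 fold changes, all under 2-fold, were 0.26 (SE 0.0899, adjusted p = 0.016) in TH2 and 0.31 (SE 0.0834, adjusted p = 0.00256) in Treg cells, -0.07 (SE 0.0829, adjusted p = 0.53) in TH17 cells and -0.22 (SE 0.0836, adjusted p = 0.0254) in TH1 cells, where -/- libraries were all lower, at 60.9, 68.2, 63.6 and 68 against 80.3, 75, 73.4 and 75.4 CPM. With no filter on low counts, neither rise passed, at 0.21 (adjusted p = 0.139) in TH2 and 0.24 (adjusted p = 0.0562) in Treg cells, nor did Treg in a fit of the 2 groups alone, at 0.26 (adjusted p = 0.0966). TH2 did not pass without -/- replicate 4, at 0.20 (adjusted p = 0.104), and TH1 did not pass without -/- replicate 3, at -0.21 (adjusted p = 0.0593), or WT replicate 1, at -0.21 (adjusted p = 0.0512). The effect differed between the subsets of the Odc table (adjusted p = 0.00196, and 0.0708 without replicate 2) and did not pass that test in the Dohh table (adjusted p = 0.62).

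**Figure D3:**
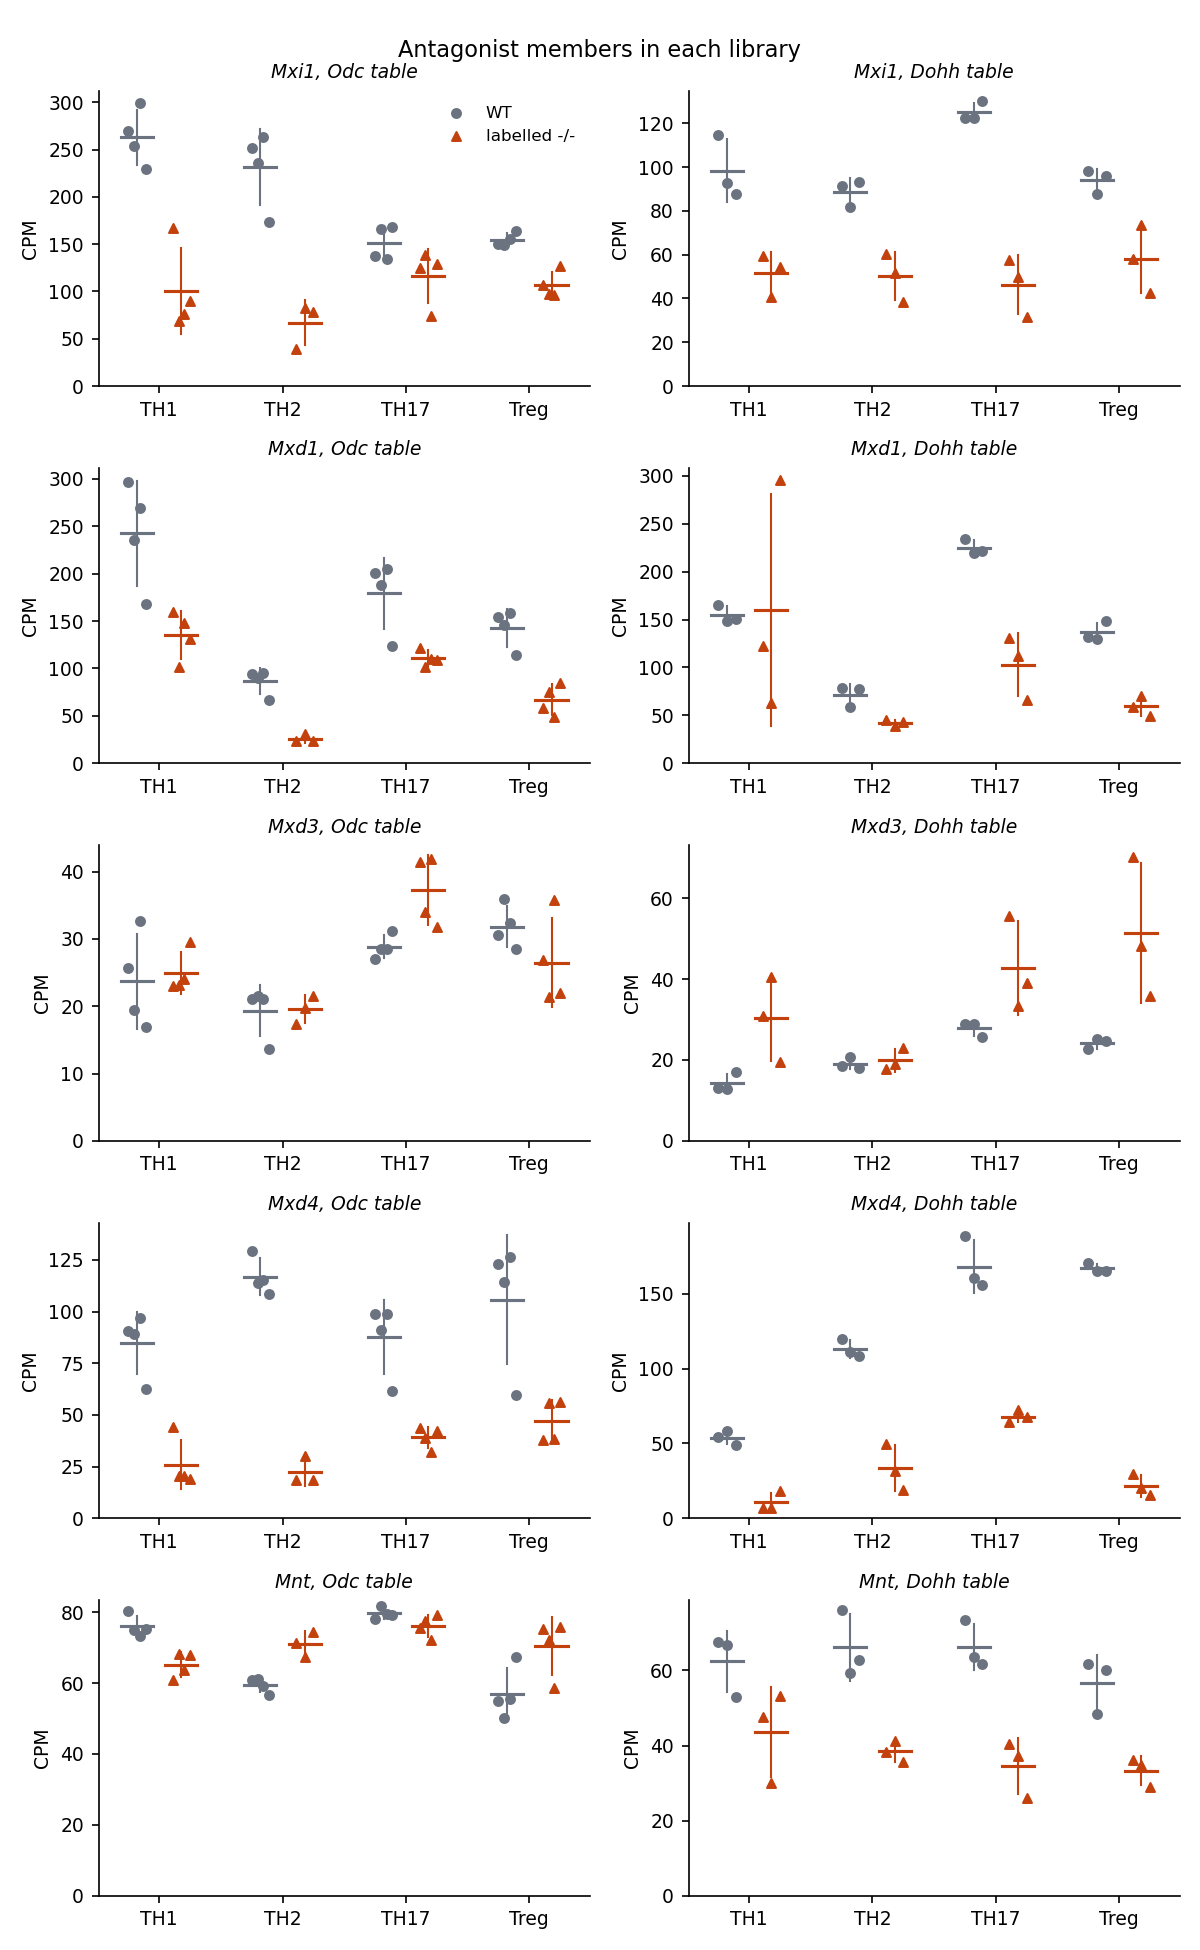
CPM (vertical axis, from 0) of the antagonists Mxi1, Mxd1, Mxd3, Mxd4 and Mnt in every library by subset, WT in grey and libraries labelled -/- in orange, Odc table on the left and Dohh table on the right. Horizontal lines are means and vertical lines 1 SD. Mxd4 points of -/- and WT libraries are apart in all 8 pairs, and the TH1 library labelled Dohh-/- of replicate 3 stands at 295 CPM of Mxd1.

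Mlx (ENSMUSG00000017801.15, chr11:101087277-101092207 on the + strand in GRCm38) passed in no subset labelled Odc-/-, with log2 fold changes from -0.06 to 0.09. In libraries labelled Dohh-/- it rose in TH2 cells, from 45, 46.2 and 38.7 to 66.4, 57.3 and 65.4 CPM, in TH17 cells, from 36.5, 40.7 and 34.1 to 52.2, 51.1 and 45.5 CPM, and in Treg cells, from 35.6, 35.5 and 39.6 to 50.7, 66.1 and 62.5 CPM. None of these groups overlapped, and the log2 fold changes were 0.54 (SE 0.144, adjusted p = 0.00438), 0.42 (SE 0.144, adjusted p = 0.0188) and 0.70 (SE 0.144, adjusted p = 0.000417). TH1 did not pass, at 0.18 (SE 0.144, adjusted p = 0.305). The TH17 rise did not pass without -/- replicate 1, at 0.38 (adjusted p = 0.0615), WT replicate 1, at 0.41 (adjusted p = 0.0552), or WT replicate 3, at 0.36 (adjusted p = 0.0821). With the myeloid-rich libraries left out, the 1 library remaining gave 0.50 in TH17 and 0.42 in Treg cells. With the basophil-rich libraries of all subsets left out, it gave 0.50 in TH17 and 0.43 in Treg cells. Whether the rises of Mlx pass without these libraries cannot be told from 1 library. Mlx shares 19.26% of its exon length with Psmc3ip on the opposite strand, so part of its counts could belong to that gene if strand was not used.

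Whether the differences from WT differ between libraries labelled Dohh-/- and Odc-/- was tested as the difference of their log2 fold changes in 1 fit of both tables, which were processed apart and have WT libraries of their own. Of 36 differences (9 members in 4 subsets), 12 passed: 2 in TH1, 3 in TH2, 3 in TH17 and 4 in Treg cells, while 18.5%, 15.7%, 21.4% and 26.2% of all genes passed. With no filter on low counts, 9 of the 36 passed. For Mnt the log2 fold change labelled Dohh-/- minus that labelled Odc-/- was -1.06 (SE 0.191, adjusted p = 0.000104) in TH2, -0.82 (SE 0.184, adjusted p = 0.0011) in TH17 and -1.04 (SE 0.185, adjusted p = 2.89e-05) in Treg cells. The log2 fold change of Mycn was higher with the label Dohh-/- by 1.44 (SE 0.465, adjusted p = 0.0247) in TH1, 3.13 (SE 0.499, adjusted p = 1.6e-05) in TH2 and 2.37 (SE 0.812, adjusted p = 0.0311) in TH17 cells, and differed by 0.52 (SE 0.695, adjusted p = 0.643) in Treg cells, which did not pass. For Mxd3 the difference was 1.03 (SE 0.306, adjusted p = 0.0143) in TH1 and 1.39 (SE 0.298, adjusted p = 0.000363) in Treg cells, and for Mlx 0.79 (SE 0.154, adjusted p = 0.000117) in Treg cells. Mxd4 fell further with the label Dohh-/- in Treg cells, with a difference of -1.73 (SE 0.397, adjusted p = 0.000836). Mxi1 fell less with that label in TH2 cells, 0.95 (SE 0.339, adjusted p = 0.0482), and further in TH17 cells, -0.997 (SE 0.325, adjusted p = 0.023). No difference of Myc, Max or Mxd1 passed in any subset. Mxd1 in TH1 and TH2 cells had differences of 0.91 (SE 0.367, adjusted p = 0.0748) and 0.97 (SE 0.393, adjusted p = 0.0871).

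Summed per length, the 5 antagonists were lower in every -/- library than in every WT library of the same subset, with the exception of TH1 cells of the Dohh table. Of all single genes, 19.6% to 30.5% in the subsets of the Odc table and 27.0% to 32.3% in those of the Dohh table were lower in this way. In the Odc table, Mxd1, Mxi1, Mxd3, Mxd4 and Mnt together had 51.3 to 75 RPKM in TH1 libraries labelled Odc-/- (WT 88.2 to 123), 34.1 to 43 in TH2 (WT 65.8 to 87.6), 63.6 to 74.6 in TH17 (WT 79.7 to 91.3) and 53.3 to 62.9 in Treg cells (WT 73.8 to 85.8). Those of the Dohh table had 39.3 to 71.6 RPKM in TH1 (WT 58.5 to 66.8), 31.4 to 36.9 in TH2 (WT 55 to 62.9), 44 to 66.8 in TH17 (WT 92.9 to 101) and 36.4 to 57.8 in Treg cells (WT 71.9 to 77.9). Mxd3 went against this fall. Its mean share of the sum was 44.3% in Treg cells labelled Dohh-/- (WT 13.6%), 32.9% in TH17 (WT 12.2%) and 27.0% in TH1 cells (WT 9.78%). The ratio of Myc and Mycn to this sum was 3.65 ± 0.342 in TH2 cells labelled Odc-/- (n = 3) and 1.89 ± 0.477 in WT (n = 4), and 2.76 ± 0.319 against 1.1 ± 0.171 in the Dohh table (SD, n = 3 each), with no overlap in either. In TH17 cells the ratio overlapped in both tables, at 1.92 to 2.18 against 1.84 to 2.57 and 0.754 to 1.12 against 0.619 to 0.78. In TH1 and Treg cells it overlapped in the Odc table, at 2.00 to 3.11 against 1.06 to 2.09 and 2.14 to 2.65 against 1.64 to 2.95, by WT replicate 4 alone (the other WT libraries had 1.06 to 1.37 and 1.64 to 1.82), and did not overlap in the Dohh table, at 1.98 to 2.98 against 1.49 to 1.91 and 0.993 to 1.69 against 0.807 to 0.932. Mycn made up 14.1 ± 2.68% of the sum of Myc and Mycn in TH2 cells labelled Dohh-/- and 4.66 ± 0.722% in WT, and at most 5.35% in any TH17 or Treg library. These sums describe RNA of members chosen by name and were given no test, and RNA does not give the amount or stability of the proteins.

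**Figure D4:**
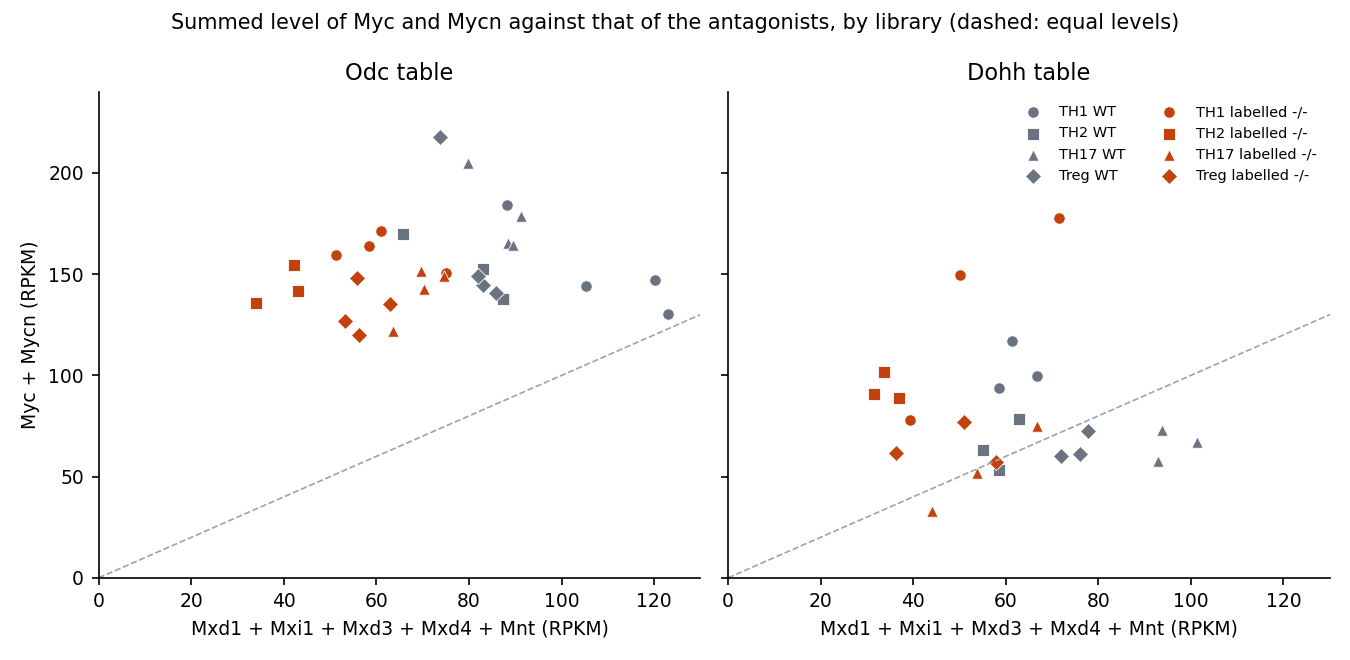
Summed RPKM of Myc and Mycn (vertical axis) against that of Mxd1, Mxi1, Mxd3, Mxd4 and Mnt (horizontal axis), one point per library, marker shape by subset, WT in grey and libraries labelled -/- in orange. The dashed line marks equal sums. Points of -/- libraries lie to the left of the WT points of the same subset, other than TH1 in the Dohh table.

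Other genes of the pathway were counted from lists chosen with earlier results of these data known. Of 28 genes described as activated by MYC, 27 or 28 were tested, and 13 to 21 of them rose while 1 to 6 fell in each comparison, beside 23.8% to 32.9% of all genes that rose and 21.5% to 29.3% that fell. The list's median log2 fold change was 0.46 to 1.08, and over the 8 comparisons 148 of 220 tests were rises and 22 were falls. Srm, which encodes spermidine synthase and stands in the polyamine pathway itself, rose in all 8 comparisons (1.08 to 2.78), as did Bop1 of ribosome assembly (0.90 to 2.15), and Nop56 of the nucleolus rose in 7 (0.60 to 1.86). Against the list's direction, Tert, the catalytic subunit of telomerase, fell in all 8 (-2.72 to -0.77), the glucose transporter gene Slc2a1 fell in 4 and the glycolytic Pkm in 3. Among 5 genes described as repressed by MYC, with 10 rises and 21 falls in 40 tests, the cyclin-dependent kinase inhibitor Cdkn1b (-1.93 to -0.91) and Ndrg1 (-3.65 to -0.93) fell in all 8 comparisons, Cdkn2b, which encodes p15INK4B, rose in all 8 (2.62 to 7.81) and Gadd45a fell in 2. These ranges are of fitted log2 fold changes over all comparisons, those that did not pass included, and depend on few counts where WT was low.

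Among other members of the network, 4 of 5 were tested, with 10 rises and 8 falls in 32 tests. Of all genes, 23.8% to 32.9% rose and 21.5% to 29.3% fell across the 8 comparisons. The counts of this list were near those shares. Mycbp, whose product binds MYC, rose in all 8 comparisons (0.61 to 1.28). Mycl, the third MYC gene, rose in TH17 cells of both tables, at 2.02 and 2.65, and fell in TH1 cells labelled Odc-/- (-1.12). Mlxip (MONDOA) fell in 4 comparisons (-0.78 to -0.01) and Mga, a MAX partner of the variant Polycomb complex PRC1.6, in 3 of the Dohh table (-1.03 to -0.52 over its 4 subsets). Of the 2 glucose-responsive targets of MLX with MONDOA, with 2 rises and 7 falls in 16 tests, Txnip fell in 7 comparisons (-2.60 to -0.20), while Arrdc4 rose in 2 (-1.01 to 1.28). Of 5 corepressors that MXD proteins and MNT recruit, with 10 rises and 12 falls in 40 tests, Ncor1 fell in 7 (-1.44 to -0.18), Sin3a fell in 5 (-0.76 to 0.00), Hdac2 rose in 5 (0.35 to 0.84), Hdac1 in 3 and Sin3b in 2, and the counts of this list were near the share of all genes. Of the cofactors of MYC, Ruvbl1 rose in 8 (0.56 to 1.26), Wdr5 in 7 (0.40 to 1.16) and Ruvbl2 in 6 (0.34 to 1.55). Trrap, the scaffold of histone acetyltransferase complexes, fell in 8 (-1.63 to -0.35), and Ep400 rose in 1 and fell in 1. Of 4 ubiquitin enzymes that act on MYC, with 8 rises and 12 falls in 32 tests, the deubiquitinase gene Usp28 fell in 6 (-1.13 to -0.39) and Skp2 rose in 5 (-0.10 to 0.99), whereas Huwe1 (1 rise, 3 falls) and Fbxw7 (2 rises, 3 falls) went both ways. The rises of this list were near the share of all genes.

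Among WT subsets, 6 members differed in the Odc table (Mycn, Max, Mxi1, Mxd1, Mxd3 and Mnt) and 5 in the Dohh table (Mycn, Max, Mxd1, Mxd3 and Mxd4) by edgeR's test over the 4 subsets, beside 71.1% and 40.1% of all genes. The interaction of genotype and subset passed for Mycn, Mxi1, Mxd1, Mxd4 and Mnt in the Odc table, beside 34.8% of genes, and for Mycn and Mxd4 in the Dohh table, beside 17.9%. Mycn had the lowest adjusted p of the members in both, 5.09e-07 and 0.00712. With replicate 2 left out of all groups of the Odc table, Mycn still passed the interaction test, at 0.000153, while Mxi1, Mxd1, Mxd4 and Mnt did not, at 0.0855, 0.163, 0.288 and 0.0708. Mxd1 did not pass without replicate 1 (0.0608) and Mxd4 did not pass without replicate 4 (0.13). Without replicate 4, Myc passed both the interaction (0.0328) and the test among WT subsets (0.0132), which it did not with all libraries. In the Dohh table, Mycn did not pass without replicate 2 (0.222) or 3 (0.0981), nor did Mxd4 without replicate 1 (0.0777) or 2 (0.418). Mycn passed there without replicate 1 (0.00626), and without replicate 3 Mxd4 (0.00265) and Mxd3 (0.0198) passed. These tests leave out the link between libraries of 1 replicate number and genotype, which deviated together in most pairs of subsets. With the number as a block within each genotype, a fit added after seeing the data, Myc passed the interaction as well in the Odc table (0.000975, beside 52.9% of genes), and Myc (0.000516) and Mlx (0.0276) passed the test among WT subsets there, while Mxd4 did not pass the interaction in the Dohh table (0.0523). Among WT subsets of the Dohh table, Max, Mxd1 and Mxd3 did not pass without replicate 1, at 0.0836, 0.117 and 0.175, nor did Mxd3 without replicate 2 (0.212), whereas Mycn passed in each case.

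The set of RefSeq promoters used here held 8 of the 9 members, all but Myc, in 10 stretches because Mxi1 has 3. The E-box CACGTG was found in those of Max, Mxd4, Mnt and Mlx, 4 of 8 members, and in 8.09% of 27025 genes. This is a description of letters in short windows. Promoters of Mycn, Mxi1, Mxd1 and Mxd3 hold none. The members were chosen by name, and a part of the E-box in their changes was not tested.

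The genes most like each member were sought among 12924 genes by Pearson's correlation over the 16 group means of log2 CPM, centred within each table. The groups of a table share their processing, and no p is given. Mxd4 had the closest match of all, with Klhl24 (0.970) and Slc41a3 (0.967), of which Klhl24 encodes an adaptor of a ubiquitin ligase. Mycn was most like Osgin2 (0.956) and Adora2b (0.948), Mxi1 most like Galnt6 (0.958) and Ccpg1os (0.940) and Mxd1 most like Akna (0.906) and Kansl1l (0.885). Mxd3 was most like Cep128 (0.910) and Ccna2 (0.902), a centrosomal gene and cyclin A2. The others were Mnt with Sys1 (0.911) and Tnpo2 (0.905), Mlx with Mfsd13a (0.923) and Hip1 (0.918) and Max with Msl1 (0.898) and Ighd (0.898). Myc had the least similar neighbours, Kcnq5 (0.804) and Gsk3b (0.787).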

How the data were processed

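Values came from 2 deposited tables of gene-level read counts, which the authors made from libraries of a stranded mRNA kit and did not normalize. The submitters' processing notes name STAR, featureCounts, DESeq2 and deepTools and the mm10 build without versions, and the strand setting of the counting is not given in the sources used here. TH2 replicate 1 labelled Odc-/- matched no column and was not analysed here. Of 47937 gene IDs, 47310 matched GENCODE M21, which gave symbols, GRCm38 coordinates and exon lengths.

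Counts were tested with edgeR 4.0.16 (R 4.3.3): TMM scaling, filterByExpr over the 8 groups of a table, a robust quasi-likelihood fit and Benjamini-Hochberg adjustment over the 13839 (Odc) or 13897 (Dohh) genes kept. The SE is the log2 fold change divided by the square root of F. The deposited counts were converted to CPM and to RPKM (per kilobase of merged exons) with TMM-scaled totals. Differences between experiments came from 1 fit of both tables (14850 genes). In place of the study's DESeq2 test, edgeR was the main tool, with DESeq2 1.42.0 at the same thresholds as an alternative. Members and lists were chosen with earlier results of these data known. Named genes were the 9 members, of each list at most 3 genes with the highest and 3 with the lowest mean log2 fold change, and 2 most similar genes per member. Alternatives were RLE scaling, no filter on low counts, DESeq2, a test against a 2-fold change (glmTreat), fits of the 2 groups alone, the replicate number as a block and leaving out each library. The procedure was tested on simulated data. Total counts of 5905374 to 12576933 per library limit precision only for Mycn, which had 0 to 22 counts in WT TH17 and Treg libraries. Python 3.11.15 with pandas 2.3.3 and matplotlib 3.10.9 made tables and figures. Some genes of the lists are not reported here.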

Additional observations from a re-analysis of the deposited data

Results flagged for a closer look

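In 4 of the 63 groups of 4 libraries, 1 library stood apart by Dixon's test, while chance flags about 1 in 20 such groups. Myc had 590.1 CPM in WT Treg replicate 4 of the Odc table against 382 to 405 CPM in the other three, and without it the fall of Myc in Treg cells did not pass. The same replicate number had the highest Myc and the lowest Mxd1 and Mxd4 among WT libraries in all 4 subsets of the Odc table. Mxd3 had 29.5 CPM in TH1 replicate 4 labelled Odc-/- against 23.0 to 24.1 CPM, and 13.7 CPM in WT TH2 replicate 4 against 21.1 to 21.5 CPM. Mxd4 had 43.9 CPM in TH1 replicate 1 labelled Odc-/- against 18.9 to 20.7 CPM, and this library was still below all WT libraries of its subset.

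Some members passed edgeR's interaction test of genotype and subset. In the Odc table, the adjusted p was 5.09e-07 for Mycn, 0.00307 for Mxi1, 0.0193 for Mxd1, 0.023 for Mxd4 and 0.00196 for Mnt. In the Dohh table it was 0.00712 for Mycn and 0.0355 for Mxd4. Of the members of the Odc table, Mycn alone still passed without replicate 2. In the Dohh table, Mycn did not pass without replicate 2 (adjusted p = 0.222) or 3 (0.0981), and Mxd4 did not pass without replicate 1 or 2, or with a replicate block within genotype (0.0523).

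In the joint edgeR fit, 12 of the 36 differences between the Dohh and Odc effects passed. Fewer of the 36 passed with no filter on low counts. For Mycn they were 1.44 in TH1 (adjusted p = 0.0247), 3.13 in TH2 (adjusted p = 1.6e-05) and 2.37 in TH17 cells (adjusted p = 0.0311) on the log2 scale. For Mnt they were -1.06 in TH2, -0.82 in TH17 and -1.04 in Treg cells (adjusted p = 0.000104, 0.0011 and 2.89e-05). Mxi1 differed by 0.95 in TH2 and -0.997 in TH17 cells (adjusted p = 0.0482 and 0.023), and Mxd3 by 1.03 in TH1 and 1.39 in Treg cells (adjusted p = 0.0143 and 0.000363). Mxd4 differed by -1.73 and Mlx by 0.79 in Treg cells (adjusted p = 0.000836 and 0.000117).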

How the results depend on the processing

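With RLE scaling, no filter on low counts, DESeq2, a fit of the 2 groups alone or a replicate block, the number of called members was the same as in the main fit in all 8 comparisons. An adjusted p below 0.05 alone gave 4, 5, 4 and 6 members in TH1, TH2, TH17 and Treg cells of the Odc table and 5, 5, 7 and 7 in the Dohh table, where 2, 4, 2 and 3, and 3, 2, 4 and 4 were over 2-fold. A test against a 2-fold change (glmTreat) left 1, 3, 0 and 1 members in the Odc table and 1, 2, 2 and 2 in the Dohh table, since it asks for a change beyond the threshold and not at it. Single passes changed with the filter or with the groups fitted. Not all of them were near the threshold: Mnt in Treg cells labelled Odc-/- had an adjusted p of 0.00256 in edgeR's main test. Without a filter on low counts, Mnt did not pass in TH2 (adjusted p = 0.139) and Treg cells (0.0562) labelled Odc-/-, nor Mxi1 in Treg cells labelled Odc-/- (0.0556) and Mlx in TH17 cells labelled Dohh-/- (0.0807). With the 2 groups alone, Mnt did not pass in Treg cells labelled Odc-/- (0.0966) and in TH1 cells labelled Dohh-/- (0.148), while Mxd3 passed in TH17 cells labelled Odc-/- (0.0272) and Myc in TH2 cells labelled Dohh-/- (0.0439); the cause was not tested.

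Signs turned only for values within 0.4 of 0 on the log2 scale that had not passed with all libraries. Mycn in TH1 cells labelled Odc-/- (0.01) was -0.0236 with RLE, -0.0248 with no filter, -0.0232 with DESeq2, -0.0050 with the block, -0.0070 with the 2 groups alone and -0.10 without the basophil-rich libraries. Mxd3 in TH2 cells labelled Odc-/- was -0.0081 with RLE, -0.0331 with no filter, -0.0015 with the 2 groups alone and -0.0080 with DESeq2. Without the basophil-rich libraries, Myc was 0.0098 in TH2 and Max 0.0071 in TH17 cells labelled Odc-/-, and in cells labelled Dohh-/- Mxd1 was -0.31 in TH1, Mxd3 -0.11 in TH2 and Myc 0.18 in TH17 cells. Without the myeloid-rich libraries, Myc in TH17 cells labelled Dohh-/- was 0.17. Without the basophil-rich libraries, Myc in TH17 and Treg cells labelled Odc-/- did not pass (0.1 and 0.0615), nor Mxi1 in Treg cells labelled Odc-/- (0.0641). Mxd3 in Treg cells labelled Odc-/- (0.0379) passed.

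Leaving out single libraries kept direction and side of the threshold in 445 fits of a member, ended a pass in 27, gave one in 3 and turned the sign in 20. The ranges with a turn of sign in the Odc table were -0.10 to 0.14 (Mycn) and -0.0583 to 0.25 (Mxd3) in TH1, -0.0929 to 0.0501 (Myc) and -0.12 to 0.0923 (Mxd3) in TH2, -0.0389 to 0.0283 (Max) in TH17 and -0.14 to 0.0418 (Mlx) in Treg cells. In the Dohh table they were -0.23 to 0.0194 (Max) and -0.73 to 0.42 (Mxd1) in TH1, -0.0581 to 0.10 (Mxd3) in TH2 and -0.24 to 0.0279 (Myc) in Treg cells. With a replicate number left out of all groups, the interaction passed for 1 to 5 members in the Odc table and 0 to 2 in the Dohh table, against 5 and 2 with all libraries, and WT subsets differed in 2 to 5 members of the Dohh table, against 5. With no filter on low counts, 1 member passed the interaction in the Dohh table. Leaving out libraries was not run for the 36 differences between experiments, of which 9 passed with no filter, 14 with RLE and 13 with the block. Of the 18 similar genes, 6 were also chosen by Spearman's correlation.

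WT and -/- libraries of 1 number and subset deviated together less, by the median, than libraries of 1 number and genotype in different subsets. Correlations were -0.0858 to 0.196 in the Odc table (median 0.00656, 7 of 15 above 0.1). They were -0.0272 to 0.136 in the Dohh table (median -0.0117, 1 of 12 above 0.1). The numbers were not taken as pairs of genotypes, though a weak link in the Odc table is not excluded. Between subsets, libraries of 1 number and genotype did deviate together in most pairs: correlations were 0.206 to 0.576 in Odc WT (24 of 24 above 0.1), 0.0339 to 0.501 in Odc-/- (20 of 21), 0.00521 to 0.314 in Dohh WT (15 of 18) and -0.265 to 0.644 in Dohh-/- libraries (13 of 18). With the replicate number as a block shared by both genotypes, Myc joined the interaction in the Odc table (6 members against 5), Myc and Mlx joined the difference among WT subsets there (8 against 6), and no call of a member in the 8 comparisons changed. A replicate block within genotype, added after seeing the data, gave the same 6 and 8, and among Dohh libraries 1 member, Mycn, passed the interaction (2 with no block) and 5 differed among WT subsets.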
